A study of Homo sapiens with 12 samples.

Results

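The genes described here are the TRIM (tripartite motif) ubiquitin ligases of a human salivary gland cell line, followed through transfection with a double-stranded RNA mimic and treatment with 2 compounds. Members were the genes with a reference gene name of TRIM followed by digits alone, except TRIM21 and TRIM25, which were not analysed here. The rule found 60 of the 60609 genes in the annotation. A further 4, TRIM42, TRIM48, TRIM51 and TRIM77, carry such a name in another field only, were at 0 in every library and were not counted as members. Of these, 44 reached 1 TPM (a measure of abundance scaled by transcript length and library size, summed over the transcripts of the gene) in at least 2 of the 12 libraries and are reported. The other 16 stayed below that filter, with no library above 0.625 TPM. They were TRIM9, TRIM10, TRIM15, TRIM17, TRIM29, TRIM31, TRIM40, TRIM43, TRIM49, TRIM50, TRIM54, TRIM60, TRIM64, TRIM67, TRIM71 and TRIM72. Just inside the filter, TRIM63 and TRIM74 reached 1 TPM in 2 libraries, with means of 0.621 and 0.574 TPM. Just outside, TRIM9 had a mean of 0.258 TPM.

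TRIM proteins typically share an amino-terminal RING domain, 1 or more B-boxes and a coiled coil, though some lack the RING. Most act as E3 ligases that place ubiquitin on a target chosen by the carboxy-terminal domain. Several are induced by interferon and block viruses directly, as TRIM5 does by binding retroviral capsids. Others act on the sensors RIG-I and MDA5, on the mitochondrial adaptor MAVS or on NF-kB signalling, which link cytosolic double-stranded RNA to interferon production. A further group, led by TRIM28, works in the nucleus on chromatin and silences retroelements.

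The cells were NS-SV-AC, an established line of human salivary acinar cells immortalised with SV40 T antigen, a viral protein that blocks p53 and RB. The series asks about double-stranded RNA of mitochondrial origin in Sjögren's syndrome, in which salivary glands are inflamed. Polyadenylated RNA was sequenced with a stranded kit, as paired reads. Cells in 3 arms received DMSO, the solvent control, or 2-CM (2-C'-methyladenosine, a nucleoside analogue) or RES (resveratrol, a plant polyphenol), the compounds at a dose that the labels give as 20 μm. Compound or an equal volume of DMSO was given 24 h ahead of transfection and again together with it. Within each arm cells were transfected either for 14 h with poly I:C, a synthetic mimic of viral RNA, or with a control named depc, and growth lasted 48 h. The 6 groups had 2 replicates each. No label says that replicates came from separate cultures, so p-values measure only the spread between these samples, which may be technical. In bulk RNA, fewer cells of a kind and less RNA per cell cannot be told apart.

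Estimated reads per library, in units of 1e6, ran from 31.2 to 49.4, with 13438 to 16554 genes at 1 TPM or more. Of 9 epithelial markers 3 passed the filter: KRT8 at 630 to 1958 TPM, KRT18 at 466 to 1571 TPM and EPCAM at no more than 1.23 TPM. KRT19 and CDH1, also markers of simple epithelium, did not exceed 0.243 and 0.596 TPM. The secretory markers that define acinar cells were absent or nearly so: AQP5, MUC7 and PRB1 were listed at 0 in every library and AMY1A did not exceed 0.0463 TPM. VIM, a filament of mesenchymal cells, ran from 386 to 819 TPM, and 2 of 2 fibroblast markers passed the filter, with COL1A1 at 15.9 to 100.3 TPM and PDGFRB at 4.20 to 11.01 TPM. Of the immune markers, PTPRC and CD3E were listed at 0 in every library and CD14 ran from 7.05 to 15.8 TPM. Replicates of a group differed along the GC content of genes: across all genes, the difference between the replicates of a group had a Spearman correlation with GC content of -0.78 in RES depc and 0.77 in RES poly I:C, and -0.43 in 2-CM poly I:C. For members of low GC content such as TRIM5, the high replicate was the first in DMSO and in RES depc and the second in RES poly I:C.

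The 44 members spanned a wide range of abundance, with TRIM28 far above the others. TRIM28 (ENSG00000130726.12, chr19:58544064-58550722, plus strand), a corepressor that recruits silencing complexes through KRAB zinc finger proteins, had a mean of 309 TPM over the 12 libraries. TRIM41 (ENSG00000146063.20, chr5:181222499-181235808, plus strand), a ligase that targets an influenza nucleoprotein, followed at 35.4 TPM. TRIM47 (ENSG00000132481.7, chr17:75874164-75878581, minus strand), a ligase with a PRY-SPRY domain, had 30.8 TPM. TRIM28 was thus the only member with a mean above 100 TPM. By chromosome, 8 members lay on chromosome 11 and 7 on chromosome 1. TRIM6, TRIM34, TRIM5 and TRIM22 stood side by side at chr11:5596109-5938619. Of the 44 genes, 16 overlap another gene with a mean of 1 TPM or more, and the counting carried no strand option. Values of these genes are uncertain, among them TRIM5 and TRIM22, which overlap each other on opposite strands, TRIM14 (NANS), TRIM37 (PPM1E), TRIM59 (SMC4), TRIM23 (TRAPPC13) and TRIM13 (DLEU2). TRIM73 and TRIM74 are near-identical copies, and TRIM16 has the paralog TRIM16L.

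Most interferon-induced members rose with poly I:C on average. Averaged over the 3 arms, 7 of 9 genes of this list were called higher and 0 lower, at a median log2 fold change of 1.48. Over all 17185 genes tested 13.4% were called higher and 17.8% lower on average, at a median of 0.16. The 7 were TRIM22, TRIM69, TRIM14, TRIM34, TRIM5, TRIM38 and TRIM56. TRIM26 and TRIM6 were not called on average, at 0.06 and 0.58. By arm, 2 of the 9 were called higher under DMSO, 8 under 2-CM and 0 under RES. Of all genes, 0.797% were called higher under DMSO and 37.5% under 2-CM, and 0.442% in both directions under RES. Fold changes here compare log2(TPM + 1), so those of low genes come out too small, and a gene was called at an adjusted p under 0.05 by limma. Leaving out any 1 of the 12 libraries kept all 7 of these average calls, and median-of-ratios scaling kept 6, with TRIM56 at 0.39 (adjusted p 0.0816).

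RefSeq promoters of members were searched for letters of the interferon-stimulated response element, a short element found before many interferon-induced genes. The core, GAAA then any 2 bases then GAAA, was searched on both strands of 300 bases around each start, 250 before and 50 after. It was found in 3.57% of 35116 promoters and in 8 of the 51 promoters of the 33 members matched in the table (15.7%). TRIM22 and TRIM28 were among the members without a match, so their promoters were not searched. Of the 8 promoters of members called higher on average 4 held it, of the 6 of members called lower 1 (TRIM16), and of the 37 of other members 3 (TRIM2, TRIM26 and TRIM44). Members with several promoters, such as TRIM2, count more than once here, and shares by gene were not taken. TRIM26 held it at 2 sites that lie 6 bases apart and so overlap. TRIM56, which rose, was searched and held none. The 250 bases before the start are shown for the 4 members that rose and hold the core, in capitals, and for TRIM38, which rose and holds none, all 5′ to 3′ on the strand of the gene in GRCh38.p14. The core begins 27 bases before the start in TRIM5 (chr11:5685075-5685324, minus strand), 26 in TRIM14 (chr9:98119223-98119472, minus strand), 90 in one of the promoters of TRIM34 (chr11:5624751-5625000, plus strand) and 62 in TRIM69 (chr15:44736278-44736527, plus strand). The TRIM38 stretch is chr6:25962552-25962801 on the plus strand.
TRIM5: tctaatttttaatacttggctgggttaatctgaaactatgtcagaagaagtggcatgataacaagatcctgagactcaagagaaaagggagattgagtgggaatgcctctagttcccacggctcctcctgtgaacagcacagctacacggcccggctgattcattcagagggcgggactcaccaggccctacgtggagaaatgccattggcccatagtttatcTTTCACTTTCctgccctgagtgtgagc
TRIM14: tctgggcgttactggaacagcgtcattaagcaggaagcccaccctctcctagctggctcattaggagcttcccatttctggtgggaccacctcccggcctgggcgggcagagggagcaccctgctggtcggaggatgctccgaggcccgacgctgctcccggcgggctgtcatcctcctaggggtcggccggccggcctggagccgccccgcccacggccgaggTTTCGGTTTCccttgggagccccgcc
TRIM34: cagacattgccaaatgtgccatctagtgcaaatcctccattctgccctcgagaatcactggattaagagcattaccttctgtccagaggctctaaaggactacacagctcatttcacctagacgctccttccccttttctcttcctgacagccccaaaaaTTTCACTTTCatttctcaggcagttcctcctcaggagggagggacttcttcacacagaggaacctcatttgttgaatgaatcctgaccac
TRIM69: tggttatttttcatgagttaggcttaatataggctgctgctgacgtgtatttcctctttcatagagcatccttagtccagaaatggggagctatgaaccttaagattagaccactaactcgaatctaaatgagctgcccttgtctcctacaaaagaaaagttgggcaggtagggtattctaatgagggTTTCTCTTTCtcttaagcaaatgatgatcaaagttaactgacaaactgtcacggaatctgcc
TRIM38: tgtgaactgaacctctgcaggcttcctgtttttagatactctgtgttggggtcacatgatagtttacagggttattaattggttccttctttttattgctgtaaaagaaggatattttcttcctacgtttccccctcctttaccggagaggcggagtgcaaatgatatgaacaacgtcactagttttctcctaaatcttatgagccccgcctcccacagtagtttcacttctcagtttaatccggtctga
All 4 cores lie on the opposite strand, so that TTTC is followed by 2 bases and TTTC on the gene's strand, and TRIM5 and TRIM34 share the letters TTTCACTTTC. A match is a description of letters, not a measured site.

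TRIM22 (ENSG00000132274.16, chr11:5689697-5737089, plus strand), an interferon-induced nuclear restriction factor, responded most. It was at 1.78 and 1.11 TPM in the DMSO depc libraries, 24.5 and 9.50 in DMSO poly I:C, 1.40 and 1.12 in 2-CM depc, 51.7 and 56.4 in 2-CM poly I:C, and 3.10 and 0.964 in RES depc and 9.38 and 22.3 in RES poly I:C. Both poly I:C libraries lay above both depc libraries in every arm, and the 2-CM poly I:C libraries were the highest of all. The log2 fold change under DMSO was 2.75 (SE 0.53, adjusted p 0.0338), that in the 2-CM arm 4.61 (SE 0.53, adjusted p 0.00473) and that in the RES arm 2.45 (SE 0.53, adjusted p 0.113). On average it was 3.27 (SE 0.31, adjusted p 5.52e-04). The RES value did not pass. Replicates with poly I:C differed by more than a factor of 2 under DMSO as well as RES. With a library left out the DMSO value ran from 2.11 to 3.39. The DMSO call ended without the filter on low genes and when only the groups compared were fitted. TRIM22 was the only member called with poly I:C in all 3 of the authors' deposited tables, at 3.68 (adjusted p 1.15e-12) with DMSO, 4.61 (adjusted p 9.81e-95) with 2-CM and 3.16 (adjusted p 2.88e-05) with RES.

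TRIM5 (ENSG00000132256.19, chr11:5663195-5938619, minus strand), which binds incoming retroviral capsids, was at 9.43 and 5.14 TPM in the DMSO depc libraries, 18.7 and 9.63 in DMSO poly I:C, 5.52 and 4.30 in 2-CM depc, 35.97 and 34.3 in 2-CM poly I:C, and 18.02 and 7.58 in RES depc and 18.3 and 30.6 in RES poly I:C. Poly I:C and depc libraries did not overlap in any arm, but under DMSO and RES the lower poly I:C library was close to the higher depc library. TRIM5 rose by 1.47 (SE 0.27, adjusted p 0.00645) on average and by 2.62 (SE 0.47, adjusted p 0.0237) under 2-CM, and was not called under DMSO (0.86) or RES (0.95). Its leading transcript differed among the 12 libraries, with 4 in all, and the part of this in its gene TPM was not tested. TRIM34 (ENSG00000258659.6, chr11:5619764-5644398, plus strand), a relative of TRIM5 in the same gene cluster, was at 3.83 and 3.30 TPM in the DMSO depc libraries, 13.2 and 6.21 in DMSO poly I:C, 3.29 and 1.62 in 2-CM depc, 18.1 and 16.1 in 2-CM poly I:C, and 7.14 and 2.65 in RES depc and 5.71 and 14.7 in RES poly I:C. Its groups overlapped under RES alone. TRIM34 rose by 1.50 (SE 0.31, adjusted p 0.00968) on average and 2.43 (SE 0.53, adjusted p 0.0273) under 2-CM. Under DMSO (1.15) and RES (0.91) TRIM34 was not called. TRIM6 (ENSG00000121236.21, chr11:5596109-5612958, plus strand), the first gene of the same cluster, makes free ubiquitin chains that activate the kinase IKKε. It was at 5.77 and 3.30 TPM in the DMSO depc libraries, 7.35 and 2.55 in DMSO poly I:C, 4.82 and 2.94 in 2-CM depc, 14.2 and 12.6 in 2-CM poly I:C, and 5.04 and 3.33 in RES depc and 3.36 and 6.24 in RES poly I:C. Only under 2-CM were the groups apart, where TRIM6 rose by 1.59 (SE 0.46, adjusted p 0.0305). That call ended with median-of-ratios scaling (0.84) and with the GC correction (0.56).

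TRIM69 (ENSG00000185880.13, chr15:44728988-44767829, plus strand), an inhibitor of vesicular stomatitis virus, was at 3.91 and 2.86 TPM in the DMSO depc libraries, 11.96 and 6.09 in DMSO poly I:C, 3.33 and 2.17 in 2-CM depc, 19.8 and 19.8 in 2-CM poly I:C, and 5.53 and 1.75 in RES depc and 6.03 and 11.8 in RES poly I:C. The groups did not overlap in any arm, and the 2-CM poly I:C libraries were both at 19.8 TPM. TRIM69 rose by 1.60 (SE 0.28, adjusted p 0.00538) on average and 2.49 (SE 0.48, adjusted p 0.0247) under 2-CM. Under DMSO (1.14) and RES (1.16) TRIM69 was not called by limma. TRIM38 (ENSG00000112343.11, chr6:25962802-25991231, plus strand), a regulator of RNA sensing and of TNF signalling, was at 2.16 and 1.62 TPM in the DMSO depc libraries, 5.84 and 3.10 in DMSO poly I:C, 1.69 and 1.57 in 2-CM depc, 9.23 and 9.15 in 2-CM poly I:C, and 5.63 and 2.36 in RES depc and 4.39 and 9.04 in RES poly I:C. RES depc replicate 1 lay above RES poly I:C replicate 1, and the groups of the other arms were apart. TRIM38 rose by 1.16 (SE 0.24, adjusted p 0.00989) on average and 1.95 (SE 0.41, adjusted p 0.0270) under 2-CM. Under DMSO (0.88) and RES (0.64) TRIM38 was not called by limma.

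TRIM56 (ENSG00000169871.13, chr7:101085481-101097967, plus strand), an RNA-binding ligase that restricts flaviviruses and assists DNA sensing, was at 9.30 and 8.16 TPM in the DMSO depc libraries, 11.4 and 11.5 in DMSO poly I:C, 8.60 and 10.01 in 2-CM depc, 25.5 and 24.3 in 2-CM poly I:C, and 13.8 and 13.2 in RES depc and 14.2 and 15.4 in RES poly I:C. Replicates were close in every group, and only 2-CM poly I:C stood well above the others. TRIM56 rose by 1.33 (SE 0.18, adjusted p 0.0118) under 2-CM and by 0.60 (SE 0.11, adjusted p 0.00579) on average, while RES gave 0.12. Neither call was kept with median-of-ratios scaling, at 0.53 under 2-CM and 0.39 on average. No other alternative ended either, apart from a 2-CM library left out for the 2-CM call. The authors' deposited table gave 0.58 under 2-CM (adjusted p 0.00239). TRIM26 (ENSG00000234127.9, chr6:30184455-30213427, minus strand), which acts on the factor IRF3, was at 1.71 and 1.50 TPM in the DMSO depc libraries, 1.31 and 1.74 in DMSO poly I:C, 1.66 and 2.01 in 2-CM depc, 2.22 and 2.44 in 2-CM poly I:C, and 1.99 and 2.42 in RES depc and 2.41 and 1.95 in RES poly I:C. All its libraries lay between 1.31 and 2.44 TPM, and it was not called in any comparison, though after a correction for GC content its average was 0.29 (adjusted p 0.0257).

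**Figure D1:**
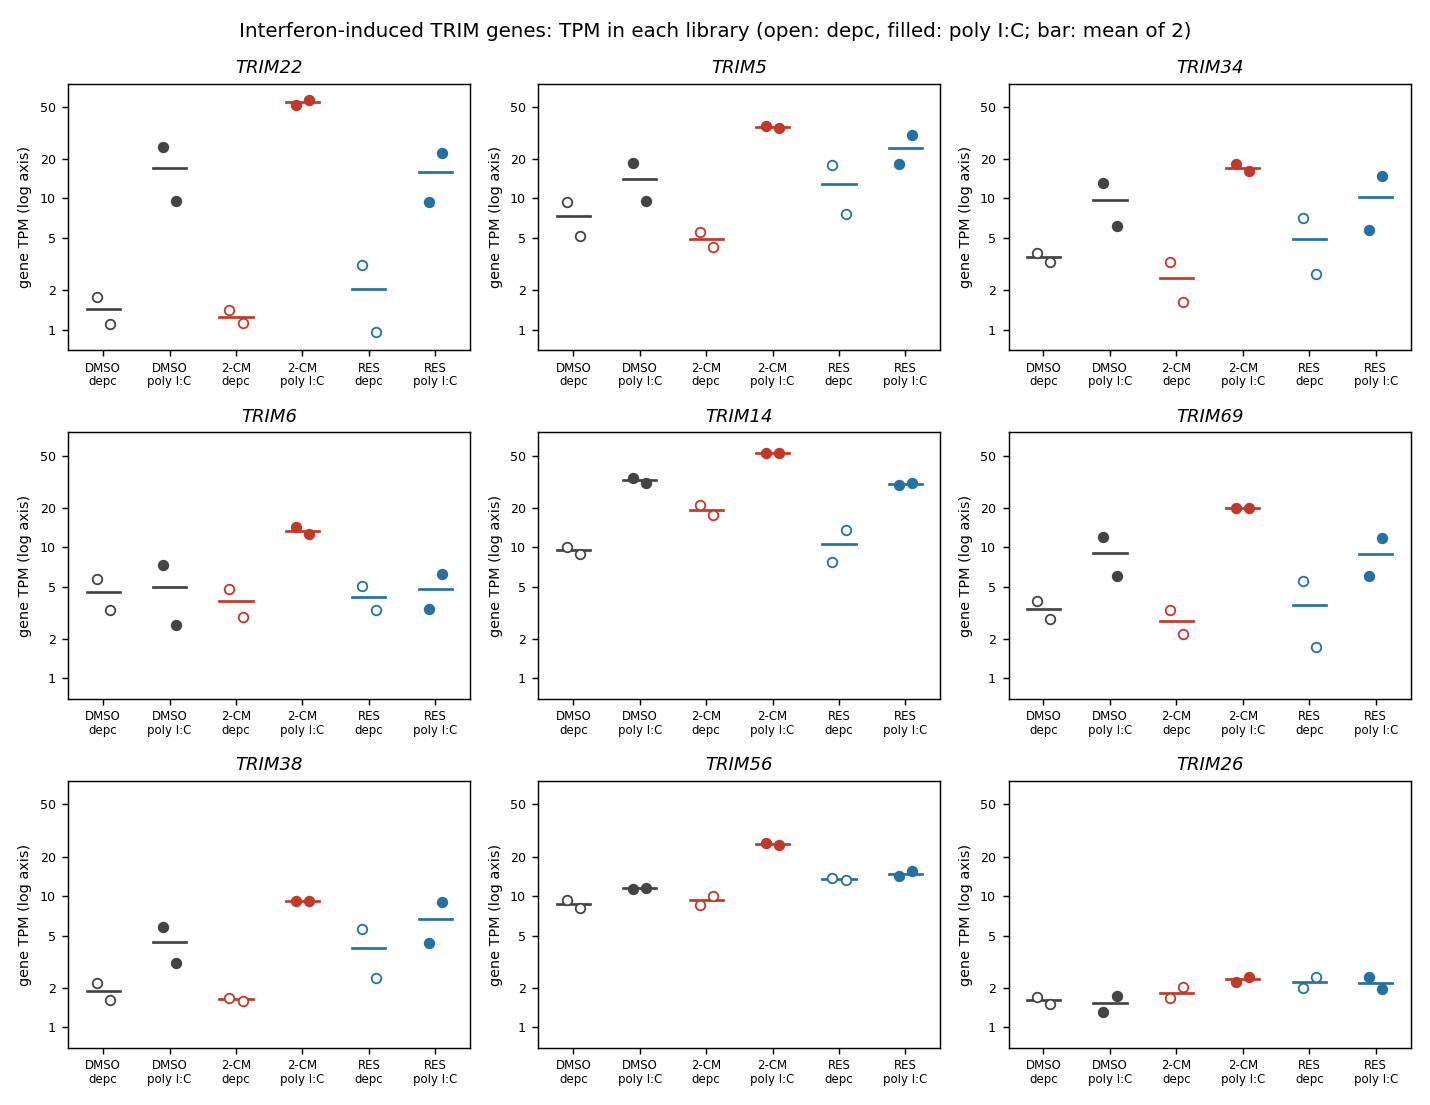
Gene TPM (log axis, the same in every panel) of the 9 interferon-induced TRIM genes in the 12 libraries; open circles are depc, filled circles poly I:C, and bars the mean of 2 replicates. For TRIM22 every poly I:C library lies above every depc library, and for TRIM26 all 12 lie between 1.31 and 2.44 TPM.

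TRIM14 (ENSG00000106785.15, chr9:98069275-98119222, minus strand) lacks a RING and serves as a scaffold at MAVS on the outer mitochondrial membrane. By gene TPM it was at 10.1 and 8.94 TPM in the DMSO depc libraries, 33.9 and 31.03 in DMSO poly I:C, 21.02 and 17.7 in 2-CM depc, 52.6 and 52.4 in 2-CM poly I:C, and 7.74 and 13.6 in RES depc and 29.8 and 31.2 in RES poly I:C. The groups were apart in every arm, and TRIM14 was called under DMSO at 1.67 (SE 0.25, adjusted p 0.0160), under 2-CM at 1.40 (SE 0.25, adjusted p 0.0237) and on average at 1.52 (SE 0.14, adjusted p 5.76e-04). Under RES the value was 1.48 (SE 0.25, adjusted p 0.0513). With median-of-ratios scaling the calls under DMSO (1.835) and 2-CM (0.572) ended, and the DMSO call also ended when only the groups compared were fitted (adjusted p 0.299). The leading annotated model differed among the libraries, and the part of this in these sizes was not tested. In both DMSO depc libraries and RES depc replicate 1 the leading transcript was ENST00000375098.7, of 1792 bases, and in the other 9 it was ENST00000341469.7, of 4480 bases. Because TPM and read totals depend on model length, the level was also taken from the 4 internal exons that both models share, a measure chosen after seeing the data. On these exons the level, on the TPM scale, was 19.4 and 17.0 in DMSO depc, 33.3 and 34.1 in DMSO poly I:C, 20.9 and 18.5 in 2-CM depc, 55.0 and 58.2 in 2-CM poly I:C, 17.6 and 15.4 in RES depc and 30.8 and 37.8 in RES poly I:C. The groups remained apart in every arm, and the 3 depc groups lay close together. The log2 fold change on shared exons was 0.86 with DMSO (adjusted p 0.0423), 1.48 with 2-CM (adjusted p 0.00679), 1.01 with RES (adjusted p 0.0659) and 1.11 on average (adjusted p 6.12e-04). By contrast the voom fit of estimated reads gave 3.20 under DMSO, and the authors' deposited table gave 3.26 (adjusted p 6.40e-14). The difference of the response under 2-CM from that under DMSO was -0.27 by gene TPM and 0.62 on shared exons, neither called. With depc, 2-CM against DMSO gave 0.95 by gene TPM and 0.11 on shared exons.

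**Figure D2:**
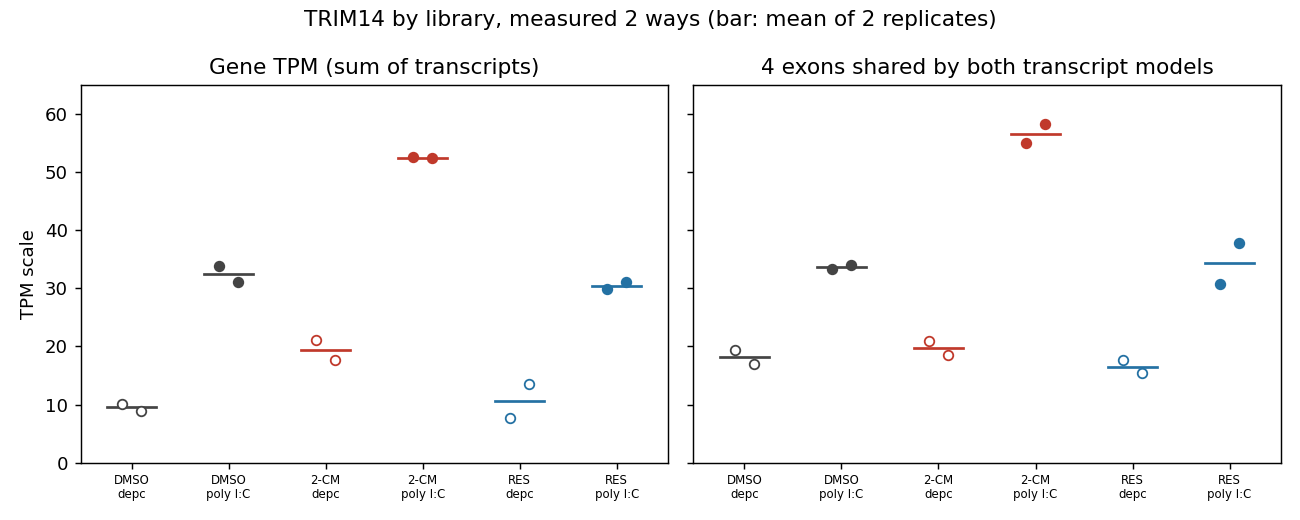
TRIM14 in the 12 libraries as gene TPM (left) and as the level of the 4 exons shared by both transcript models on the same scale (right); open circles are depc, filled circles poly I:C, and bars the mean of 2 replicates. The 2 DMSO depc libraries move from 10.1 and 8.94 on the left to 19.4 and 17.0 on the right, next to the 2-CM depc libraries.

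Members that act on RNA sensing and its signalling were called on average about as often as all genes, 35.7% against 31.2%. These calls ran in both directions, though not after the GC correction. Under 2-CM the directions of the calls depended on the scaling. Of the 14 tested (TRIM31 was below the filter), 1 was called higher and 1 lower under DMSO (0.797% and 3.28% of all genes), 7 higher and 0 lower under 2-CM (37.5% and 11.8%), 0 under RES (0.442%), and 3 higher and 2 lower on average (13.4% and 17.8%). Under 2-CM median-of-ratios scaling gave 3 higher and 2 lower (20.3% and 23.5% of all genes), and the authors' deposited table gave 6 higher and 3 lower (61.8% in both directions). The GC correction gave 2 higher and 0 lower under 2-CM (29.6% of all genes in both directions). On average it gave 4 higher and 0 lower (37.2%). The median log2 fold change was 0.86 under 2-CM, against 0.61 over all genes, and 0.27 on average, against 0.16. The 3 called higher on average were TRIM14, TRIM38 and TRIM56, which the interferon-induced list also holds, and the 2 called lower were TRIM8 and TRIM11.

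TRIM8 (ENSG00000171206.14, chr10:102642310-102660680, plus strand), which promotes TNF and NF-kB signalling, was at 21.9 and 20.00 TPM in the DMSO depc libraries, 12.7 and 10.1 in DMSO poly I:C, 26.3 and 28.99 in 2-CM depc, 24.8 and 21.2 in 2-CM poly I:C, and 27.98 and 26.8 in RES depc and 23.2 and 20.8 in RES poly I:C. The DMSO poly I:C libraries were the lowest of the 12, and depc lay above poly I:C in every arm. TRIM8 fell by 0.83 on the log2 scale under DMSO (SE 0.19, adjusted p 0.0499) and by 0.46 on average (adjusted p 0.0164). The voom fit gave -0.43 under DMSO, not called. The DMSO call was lost in 11 of 12 fits with a library left out, at -0.98 to -0.68, and the average call without 2-CM depc replicate 2 or 2-CM poly I:C replicate 2. After a correction for GC content the average value was -0.004. TRIM11 (ENSG00000154370.16, chr1:228393673-228406835, minus strand), which limits interferon-beta induction, was at 23.8 and 24.5 TPM in the DMSO depc libraries, 13.3 and 19.1 in DMSO poly I:C, 24.5 and 31.2 in 2-CM depc, 21.02 and 19.02 in 2-CM poly I:C, and 28.3 and 37.6 in RES depc and 24.9 and 17.4 in RES poly I:C. Depc exceeded poly I:C without overlap in each arm, and TRIM11 fell by 0.55 on average (SE 0.15, adjusted p 0.0286). That call was lost in 8 of 12 fits with a library left out, the value running from -0.63 to -0.46 over the 12, and after the GC correction, at -0.17 (adjusted p 0.167).

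Other members act on the sensors themselves. TRIM4 (ENSG00000146833.15, chr7:99876958-99919600, minus strand), which adds ubiquitin to RIG-I, was at 3.96 and 2.57 TPM in the DMSO depc libraries, 4.17 and 2.79 in DMSO poly I:C, 3.15 and 3.35 in 2-CM depc, 8.55 and 6.35 in 2-CM poly I:C, and 7.84 and 3.69 in RES depc and 5.51 and 7.45 in RES poly I:C. The groups were apart under 2-CM alone, where TRIM4 rose by 0.98 (SE 0.35, adjusted p 0.0461), and the sign turned to -0.03 after the GC correction. TRIM65 (ENSG00000141569.12, chr17:75880335-75896951, minus strand), the ligase of MDA5, was at 15.8 and 13.8 TPM in the DMSO depc libraries, 11.1 and 13.98 in DMSO poly I:C, 14.5 and 22.2 in 2-CM depc, 16.7 and 17.8 in 2-CM poly I:C, and 14.7 and 13.7 in RES depc and 11.4 and 9.17 in RES poly I:C. It was not called by limma in any comparison, and under RES its poly I:C libraries were below its depc libraries. TRIM13 (ENSG00000204977.10, chr13:49995888-50020481, plus strand), a ligase anchored in the endoplasmic reticulum that restrains MDA5, was at 4.45 and 2.24 TPM in the DMSO depc libraries, 6.81 and 3.26 in DMSO poly I:C, 3.26 and 0.947 in 2-CM depc, 10.2 and 12.5 in 2-CM poly I:C, and 7.70 and 1.81 in RES depc and 4.51 and 9.75 in RES poly I:C. It rose under 2-CM by 2.09 (SE 0.63, adjusted p 0.0319), the only arm without overlap, and was not called after the GC correction (0.50).

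TRIM23 (ENSG00000113595.15, chr5:65589690-65625975, minus strand) carries an ARF GTPase domain and modifies NEMO, a subunit of the IKK complex. It was at 3.67 and 1.72 TPM in the DMSO depc libraries, 6.35 and 1.19 in DMSO poly I:C, 1.47 and 0.794 in 2-CM depc, 13.2 and 9.55 in 2-CM poly I:C, and 7.74 and 1.90 in RES depc and 2.94 and 11.9 in RES poly I:C. Replicates differed by a factor of more than 4 in 3 groups, DMSO poly I:C and both RES groups. TRIM23 rose under 2-CM by 2.54 (SE 0.76, adjusted p 0.0319) and was not called after the GC correction (0.53). TRIM27 (ENSG00000204713.11, chr6:28903002-28923988, minus strand), an inhibitor of the kinase TBK1, was at 1.98 and 3.74 TPM in the DMSO depc libraries, 2.82 and 1.32 in DMSO poly I:C, 3.33 and 1.69 in 2-CM depc, 2.78 and 3.41 in 2-CM poly I:C, and 2.13 and 2.15 in RES depc and 1.68 and 1.81 in RES poly I:C. Its libraries stayed between 1.32 and 3.74 TPM and it was not called. TRIM32 (ENSG00000119401.10, chr9:116687302-116701300, plus strand), which modifies the adaptor STING, was at 14.1 and 11.05 TPM in the DMSO depc libraries, 9.95 and 8.20 in DMSO poly I:C, 13.1 and 9.26 in 2-CM depc, 19.8 and 18.3 in 2-CM poly I:C, and 16.1 and 10.02 in RES depc and 12.6 and 14.02 in RES poly I:C. Poly I:C lay below depc under DMSO and above it under 2-CM, at -0.43 and 0.74 (SE 0.28, adjusted p 0.0514), and neither was called. TRIM68 (ENSG00000167333.13, chr11:4598672-4608231, minus strand), another limiter of interferon-beta, was at 9.17 and 7.81 TPM in the DMSO depc libraries, 6.87 and 5.54 in DMSO poly I:C, 8.48 and 7.60 in 2-CM depc, 11.4 and 11.8 in 2-CM poly I:C, and 12.9 and 8.31 in RES depc and 10.1 and 9.14 in RES poly I:C. It had the same pattern as TRIM32 at -0.40 under DMSO and 0.48 under 2-CM, not called.

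Among all 44 members, 8 were called lower on average, beside the 17.8% of all genes. Some cell type markers were called lower on average as well, 2 of 2 fibroblast markers (median -1.06) and 2 of the 3 epithelial markers tested. The other epithelial marker tested was at 0.283 and was not called. Nor were VIM, a filament protein of mesenchymal cells (-0.055), the basal or duct marker (-0.103), the immune marker (-0.397) or the 2 myoepithelial markers (median -0.388). The summed level of the 2 fibroblast markers was 75.6 to 81.6 TPM in DMSO depc and 20.1 to 22.5 in DMSO poly I:C, 93.98 to 110.1 and 47.5 to 48.1 with 2-CM, and 55.8 to 63.7 and 27.95 to 29.8 with RES. That of the 9 epithelial markers was 2301 to 2494 TPM in DMSO depc and 1099 to 1733 in DMSO poly I:C. It was 3210 to 3530 and 1390 to 1492 with 2-CM, and 1682 to 2331 and 1098 to 1372 with RES. VIM did not fall in every arm, at 612 to 787 and 807 to 819 TPM with 2-CM. The part of these changes in the members' values was not tested. TRIM28 was at 353 and 408 TPM in the DMSO depc libraries, 166 and 216 in DMSO poly I:C, 453 and 545 in 2-CM depc, 236 and 255 in 2-CM poly I:C, and 292 and 381 in RES depc and 242 and 163 in RES poly I:C. Poly I:C lay below depc without overlap in each arm. TRIM28 fell by 0.92 on average (SE 0.14, adjusted p 0.00320) and by 1.01 under 2-CM (adjusted p 0.0274), while the values under DMSO (-1.001 (SE 0.24, adjusted p 0.0536)) and RES (-0.75) did not pass. TRIM47 was at 35.2 and 42.5 TPM in the DMSO depc libraries, 17.4 and 23.8 in DMSO poly I:C, 42.96 and 55.5 in 2-CM depc, 24.5 and 24.7 in 2-CM poly I:C, and 27.1 and 36.5 in RES depc and 22.5 and 16.4 in RES poly I:C. It was also below depc in every arm and fell by 0.85 on average (SE 0.15, adjusted p 0.00571). The average calls of TRIM28 and TRIM47 were kept with any 1 library left out, and after the GC correction at -0.38 and -0.30.

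TRIM41 was at 34.2 and 35.6 TPM in the DMSO depc libraries, 22.1 and 29.5 in DMSO poly I:C, 39.8 and 48.9 in 2-CM depc, 32.3 and 32.1 in 2-CM poly I:C, and 41.6 and 47.2 in RES depc and 33.7 and 28.3 in RES poly I:C. Depc and poly I:C were apart in every arm, and TRIM41 fell by 0.46 on average (adjusted p 0.0212). TRIM62 (ENSG00000116525.14, chr1:33145399-33182059, minus strand), a regulator of epithelial polarity, was at 11.6 and 11.6 TPM in the DMSO depc libraries, 5.71 and 7.46 in DMSO poly I:C, 11.8 and 13.8 in 2-CM depc, 9.07 and 8.66 in 2-CM poly I:C, and 15.3 and 17.6 in RES depc and 13.7 and 9.86 in RES poly I:C. TRIM62 fell by 0.56 on average (adjusted p 0.0162), again without overlap in any arm. TRIM3 (ENSG00000110171.20, chr11:6448613-6474459, minus strand), a ligase with NHL repeats known from neurons, was at 22.5 and 21.95 TPM in the DMSO depc libraries, 15.3 and 15.9 in DMSO poly I:C, 24.1 and 29.7 in 2-CM depc, 22.95 and 24.3 in 2-CM poly I:C, and 26.2 and 29.5 in RES depc and 22.00 and 17.5 in RES poly I:C. It fell by 0.38 on average (adjusted p 0.0341), with overlap under 2-CM. TRIM16 (ENSG00000221926.12, chr17:15627960-15684311, minus strand), which lacks a RING and responds to damaged lysosomes, was at 19.2 and 20.9 TPM in the DMSO depc libraries, 13.1 and 16.7 in DMSO poly I:C, 22.6 and 21.9 in 2-CM depc, 13.5 and 15.2 in 2-CM poly I:C, and 15.3 and 12.8 in RES depc and 13.9 and 10.6 in RES poly I:C. It fell by 0.40 on average (adjusted p 0.0398) and by 0.60 under 2-CM (adjusted p 0.0463), with overlap under RES. With 1 library left out in turn, the average call was lost in 6 of 12 fits for TRIM41 (range over the 12, -0.53 to -0.39), 4 for TRIM62 (-0.64 to -0.49), 8 for TRIM3 (-0.43 to -0.33) and 8 for TRIM16 (-0.46 to -0.34). Leaving out DMSO depc replicate 2, 2-CM depc replicate 2 or either 2-CM poly I:C library ended all 4. After the GC correction TRIM41 was at -0.44 and TRIM16 at -0.47, still called, and TRIM62 and TRIM3 at -0.09 and -0.13, not called. With FPKM in place of TPM the average calls of TRIM41, TRIM3 and TRIM16 were lost. The voom fit ended those of TRIM3 and TRIM16, and the fit without a filter on low genes that of TRIM16. The eighth member called higher on average, TRIM61 (ENSG00000183439.9, chr4:164954446-164977668, minus strand), was close to the filter at 0.844 and 0.320 TPM in the DMSO depc libraries, 1.22 and 0.370 in DMSO poly I:C, 0.257 and 0.427 in 2-CM depc, 1.63 and 2.02 in 2-CM poly I:C, and 0.609 and 0.585 in RES depc and 0.798 and 2.15 in RES poly I:C. Its average of 0.60 (SE 0.19, adjusted p 0.0393) was lost in 8 of 12 fits with a library left out (0.47 to 0.74 over the 12) and turned to -0.08 after the GC correction.

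Counted over the whole family, the arms differed in how many members passed. Under DMSO 2 of 44 were called higher and 1 lower, beside 0.797% and 3.28% of all genes. Under 2-CM 21 were called higher and 3 lower (TRIM28, TRIM47 and TRIM16), beside 37.5% and 11.8%. Without the filter on low genes only TRIM5, TRIM14, TRIM22 and TRIM56 kept a call there, and the share of all genes was not taken. Under RES 0 were called (0.442% of all genes in both directions), 0 by voom as well, and 10 had an unadjusted p under 0.05 (14% of all genes). On average 8 were higher and 8 lower, beside 13.4% and 17.8%, and 15 members were not called in any of these 4 comparisons. The share called under 2-CM was thus close to that of all genes. The median log2 fold change of the 44 was -0.21 under DMSO (all genes -0.14), 0.76 under 2-CM (all genes 0.61) and -0.024 under RES (all genes -0.028). Median-of-ratios scaling took the median of all genes under 2-CM to 0.027, and the members then split into 11 higher and 9 lower there (20.3% and 23.5% of all genes), 10 and 8 on average (16.9% and 19.4%), and 1 and 0 under DMSO (0.57% and 0.169%). The 10 calls under 2-CM that ended with this scaling, all of higher members, were TRIM4, TRIM6, TRIM14, TRIM36, TRIM44, TRIM52, TRIM55, TRIM56, TRIM58 and TRIM61. With any 1 of the 4 2-CM libraries left out, the members' calls under 2-CM were lost, and TRIM22 then stood at 4.52 to 4.70. With any 1 of the 4 DMSO libraries or either 2-CM poly I:C library left out, those under DMSO were lost. There TRIM22 ran from 2.11 to 3.39 and TRIM14 from 1.59 to 1.75. The share of all genes called in these fits was not taken, so the losses cannot be set against all genes.

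**Figure D3:**
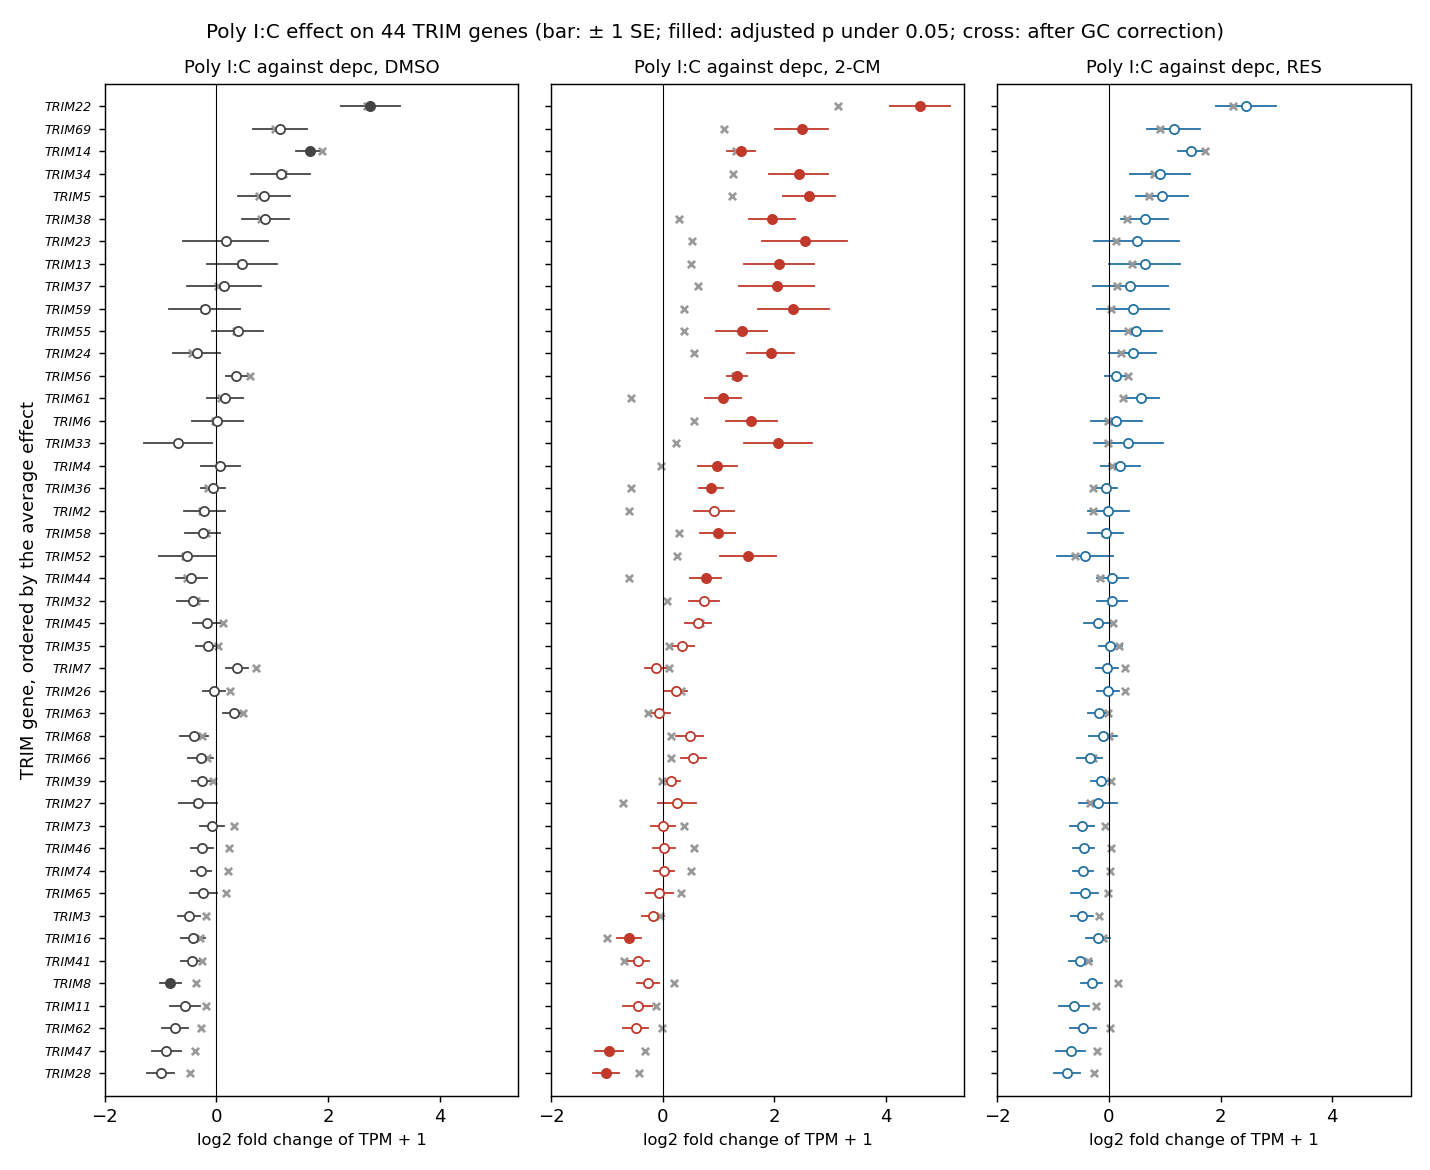
Log2 fold change of TPM + 1, poly I:C against depc, for the 44 TRIM genes in each arm; circles show the estimate with a bar of 1 SE on either side, filled where the adjusted p was under 0.05, and grey crosses show the value after the GC correction. Under 2-CM 24 circles are filled, against 3 under DMSO and 0 under RES, and for all 21 genes that rose under 2-CM the cross lies nearer to 0 than the circle.

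The size of the effect followed the GC content of the members' exons. Across the 44 members, which share libraries, Spearman's correlation between GC content and the poly I:C effect was -0.40 with DMSO, -0.82 with 2-CM and -0.75 with RES, and across all genes -0.36, -0.80 and -0.62. Below the members' median GC content of 49.28%, 19 of 22 were called higher under 2-CM, and at or above it 2 of 22 (TRIM14 and TRIM56). All 8 members called lower on average lay at or above that median. The shares of all genes called below and above that GC content were not taken. Each library was next centred along GC content. By design this removes correlations with GC content, and with them any true poly I:C effect that follows it. Afterwards the correlations across members were -0.04 with DMSO, -0.12 with 2-CM and -0.21 with RES. The calls then were 8 higher and 3 lower under DMSO (15.9% of all genes in both directions), 9 and 5 under 2-CM (29.6%), 4 and 0 under RES (3.19%) and 11 and 6 on average (37.2%). Of the interferon-induced list 7 of 9 were then called higher under DMSO, 6 under 2-CM, 4 under RES and 8 on average. Without the correction these counts were 2, 8, 0 and 7. All 4 members called under RES after the correction belonged to it: TRIM22 at 2.23, TRIM14 at 1.71, TRIM69 at 0.92 and TRIM5 at 0.72. For TRIM22 the corrected values were 2.70 under DMSO and 3.15 under 2-CM. For TRIM69 they were 1.05 and 1.09, and for TRIM34 1.19 and 1.27. TRIM38 lost its call under 2-CM (0.29), was called under DMSO (0.80) and was not called under RES with or without the correction (0.33 with it). The 14 calls under 2-CM that ended with the correction were those of TRIM4, TRIM6, TRIM13, TRIM23, TRIM33, TRIM36, TRIM37, TRIM38, TRIM44, TRIM52, TRIM55, TRIM58, TRIM59 and TRIM61, among which TRIM4, TRIM36, TRIM44 and TRIM61 changed sign.

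**Figure D4:**
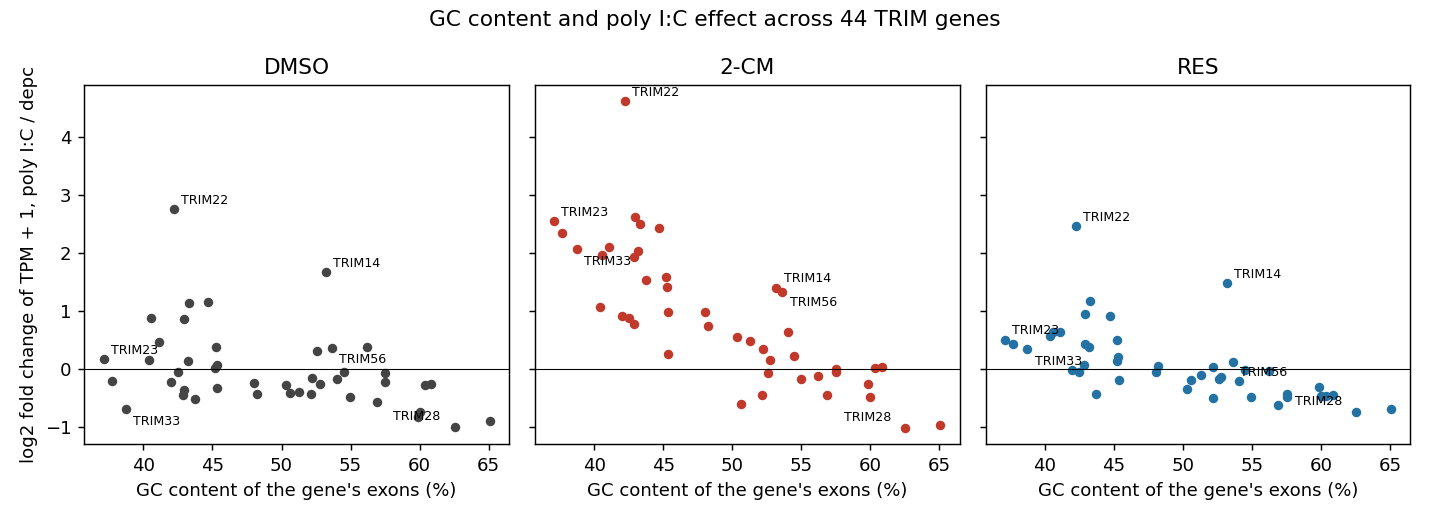
Poly I:C effect (log2 fold change of TPM + 1) against the GC content of the gene's exons for the 44 TRIM genes, 1 point per gene, in each arm. The points fall from left to right under 2-CM and RES (Spearman -0.82 and -0.75), with TRIM22 above the others in each panel and TRIM14 and TRIM56 above their neighbours of like GC content under 2-CM.

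The remaining 19 members, given by their range, had means of 0.574 to 22.4 TPM. None was called under DMSO, RES or on average, and 9 were called higher under 2-CM, beside 37.5% of all genes, where their values ran from -0.11 (TRIM7) to 2.34 (TRIM59). Of the chromatin cofactors, which carry a PHD finger and a bromodomain, TRIM24 (1.93) and TRIM33 (2.07) rose under 2-CM and TRIM28 fell, beside 37.5% and 11.8% of all genes, and TRIM66 was not called. TRIM33 was not called after the GC correction (0.25). The members with a transmembrane, ARF or MATH domain (TRIM13, TRIM59, TRIM23 and TRIM37) were called higher under 2-CM, 4 of 4 (37.5% of all genes), and 0 of 4 after the GC correction (29.6% in both directions). Their GC content ran from 37.1% to 43.2%. Of the 8 listed microtubule and muscle TRIM genes with a COS box, TRIM42 among them, 4 passed the filter, and TRIM36 and TRIM55 rose under 2-CM, 2 of 4 (37.5% of all genes), in neither case with median-of-ratios scaling or the GC correction. Of the PRY-SPRY members 19 of 25 were tested, with 8 higher and 1 lower under 2-CM (37.5% and 11.8% of all genes) and 5 higher and 4 lower on average (13.4% and 17.8%). With median-of-ratios scaling the PRY-SPRY counts under 2-CM were 5 and 5 (20.3% and 23.5% of all genes) at a median of -0.285, against 0.348 without it, and the authors' deposited table held 6 and 6 (61.8% in both directions). In 7 of 44 members (15.9%) the groups were apart in opposite directions between arms, beside 12.4% of all genes, and no difference of response was called. TRIM32, TRIM39, TRIM44 and TRIM68 were lower under DMSO and higher under 2-CM, TRIM52 and TRIM66 lower under RES and higher under 2-CM, and TRIM7 higher under DMSO and lower under 2-CM.

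To ask whether a compound altered the response, the poly I:C effect with DMSO was subtracted from that with the compound, and both differences share the DMSO libraries. For 2-CM 0 of 44 members were called by limma (0.0116% of all genes), 0 by voom, and 15 had an unadjusted p under 0.05, as did 29.7% of all genes. The lowest adjusted p was 0.161, and the median difference was 0.90, against 0.68 over all genes. TRIM33 had the largest difference at 2.76 (95% interval 0.80 to 4.71), from 3.86 ± 0.162 TPM to 19.6 ± 4.12 TPM (SD, n = 2) under 2-CM and from 8.84 ± 3.80 TPM to 5.42 ± 3.63 TPM under DMSO. For TRIM22 the difference was 1.85 (0.15 to 3.56), for TRIM5 1.76 (0.26 to 3.26) and for TRIM56 0.97 (0.38 to 1.57). After the GC correction these were 0.93, 0.45, 0.46 and 0.69, not called (0.0466% of all genes). For RES 0 members were called by limma (0% of all genes) and 0 by voom, and 0 had an unadjusted p under 0.05 (1.7%). The RES difference of TRIM22 was -0.30 (-2.01 to 1.40) and that of TRIM5 0.09 (-1.40 to 1.59), so changes of more than a factor of 2 in either direction were within both intervals.

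Compounds were also set against DMSO within a transfection. With depc, 2-CM gave 0 calls (0.0349% of all genes), 2 members with an unadjusted p under 0.05 (4.84%), and 0 calls by voom. RES gave 0 (1.03%), 6 with an unadjusted p under 0.05 (14.7%), and 0 by voom. After the GC correction 5 were called for RES with depc (11.6%): TRIM38 (0.58) and TRIM5 (0.53) higher and TRIM24 (-0.93), TRIM59 (-0.67) and TRIM47 (-0.45) lower. With poly I:C, 2-CM gave 0 calls (0.105%), although 25 members had an unadjusted p under 0.05 (34.2% of all genes) and 37 of 44 lay above DMSO without overlap, beside 70.4% of all genes. The lowest adjusted p was 0.0905, shared by TRIM8 at 0.95, TRIM36 at 1.06 and TRIM56 at 1.06. TRIM56 stood at 24.9 ± 0.816 TPM (SD, n = 2) with 2-CM and poly I:C against 11.5 ± 0.0849 TPM with DMSO and poly I:C. After the GC correction TRIM22 (0.78), TRIM56 (0.72), TRIM33 (0.60) and TRIM58 (0.58) were called higher and TRIM63 (-1.05) lower, beside 4.38% of all genes. RES with poly I:C gave 0 calls (0.157%), 6 with an unadjusted p under 0.05 (13.4%), and 0 by voom, and after the GC correction 1 (6.88%), TRIM62 at 0.50. For TRIM22 that contrast was -0.07 (-1.28 to 1.13), and for TRIM8 0.90 (0.46 to 1.33, adjusted p 0.102).

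Family members under other symbols and the ubiquitin enzymes that serve TRIM ligases were read in the same way. PML, the TRIM protein that organises nuclear bodies and is interferon-induced, was at 26.9 and 28.01 TPM in the DMSO depc libraries, 38.3 and 50.6 in DMSO poly I:C, 27.5 and 32.8 in 2-CM depc, 58.7 and 59.1 in 2-CM poly I:C, and 23.9 and 36.2 in RES depc and 46.2 and 39.04 in RES poly I:C. The poly I:C libraries were above depc in every arm, and PML rose by 0.71 (SE 0.14, adjusted p 0.00781) on average, a call that ended with median-of-ratios scaling (0.49). After the GC correction its average was 0.94 (adjusted p 3.92e-04). MID1 and TRIML2 rose under 2-CM (1.62 and 1.31), with no call for the difference from DMSO (adjusted p 0.161 for both). After the GC correction neither was called under 2-CM (0.25 and 0.41), and MID1 was called lower under DMSO (-0.72, adjusted p 0.0179). MID2 was not called, and MEFV and TRIML1 were below the filter. Of 18 genes for ubiquitin, E1 and E2 enzymes, 6 were called higher and 1 lower on average, 0 and 1 under DMSO, 10 and 2 under 2-CM and 0 under RES. The shares of all genes were 13.4% and 17.8% on average, 0.797% and 3.28% under DMSO and 37.5% and 11.8% under 2-CM. Under RES it was 0.442% in both directions. With the correction for GC content the counts were 4 and 2 on average (37.2% of all genes in both directions) and 4 and 4 under 2-CM (29.6%), at a median of -0.058 there. UBA1, the main E1 enzyme that activates ubiquitin, was at 522 and 567 TPM in the DMSO depc libraries, 235 and 311 in DMSO poly I:C, 644 and 690.2 in 2-CM depc, 307 and 321 in 2-CM poly I:C, and 468 and 592 in RES depc and 358 and 271 in RES poly I:C. It was lower with poly I:C in every arm and fell by 0.95 on average (adjusted p 0.00150) and by 1.01 under DMSO (adjusted p 0.0359). UBE2N, the E2 enzyme that builds the K63-linked chains used in RNA sensing, was at 34.1 and 26.5 TPM in the DMSO depc libraries, 133 and 61.02 in DMSO poly I:C, 45.8 and 10.5 in 2-CM depc, 118 and 127 in 2-CM poly I:C, and 67.4 and 28.6 in RES depc and 59.6 and 88.9 in RES poly I:C. It rose by 1.56 (SE 0.38, adjusted p 0.0182) on average, with overlap under RES. After the GC correction the average was 0.84 (adjusted p 0.0295).

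The authors' deposited tables compare poly I:C with depc in each arm. At an adjusted p under 0.05 they held 5 members as higher and 0 as lower under DMSO, 18 and 10 under 2-CM, and 1 and 0 under RES. Among the genes tested here those tables called 1.37%, 61.8% and 0.436%. The 5 under DMSO in the authors' deposited table were TRIM22, TRIM14, TRIM69 at 1.56 (adjusted p 0.0232), TRIM34 at 1.54 (adjusted p 0.0396) and TRIM38 at 1.40 (adjusted p 0.0474). All 5 belong to the interferon-induced list, and the latter 3 were not called under DMSO by limma. TRIM8, the 1 member called lower under DMSO by limma, stood at -0.37 (adjusted p 0.852) in the authors' deposited table. The 10 held as lower under 2-CM were TRIM3, TRIM7, TRIM8, TRIM11, TRIM16, TRIM28, TRIM41, TRIM47, TRIM62 and TRIM65. Of these limma called TRIM16, TRIM28 and TRIM47 there. In the authors' deposited table TRIM8 stood at -1.19 under 2-CM (adjusted p 8.2e-10), against -0.26 by limma, not called.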

How the data were processed

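StringTie 2.0.4 was limited to GENCODE 32 transcripts, per the file headers, with no strand option, and the deposited files give coverage, FPKM and TPM per transcript. Per the submitters' processing notes, bcl2fastq 2.20, HISAT2 2.1.0, StringTie, DESeq2 and build hg38 were used. The authors' deposited tables hold log2 fold changes with standard errors, raw and adjusted p-values, the score behind each p and a mean normalised signal.

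Transcript TPM was summed to genes (Python 3.11.15). Reads were estimated from coverage, transcript length and read length. No counts were used, so limma 3.58.1 (R 4.3.3) fitted 6 group means to log2(TPM + 1) over 17185 genes with 1 TPM or more in at least 2 libraries, with Benjamini-Hochberg adjustment over all of them. All adjusted p-values and 95% intervals are from limma unless the authors' table is named. The 10 comparisons were poly I:C against depc in each arm and averaged, differences of response, and compounds against DMSO. The GC correction subtracted, per library, a running median over 501 genes ordered by GC content. Code was tested on simulated data. Members and lists were chosen with earlier results of these data known. Library values are given for members called in the average, DMSO, RES, difference or compound comparisons, for the interferon-induced and RNA-sensing lists, and for the 3 most abundant members. Alternatives were FPKM, scaling, filters, pseudocount, voom, no variance trend, replicate block, GC correction, only the groups compared, and each library left out. A further promoter motif search is not reported here. Coordinates are GRCh38. All 49338 genes shared with GENCODE 44 had equal ends there.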

Additional observations from a re-analysis of the deposited data

How the results depend on the processing

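Members called per comparison are given against 3 under DMSO, 24 under 2-CM, 0 under RES, 16 on average and 0 elsewhere. The GC correction, alone and with the replicate block, gave 11 and 11 under DMSO, 14 and 14 under 2-CM, 4 and 4 under RES, 5 and 4 for 2-CM against DMSO with poly I:C, 5 and 5 for RES against DMSO with depc, and 1 and 2 with poly I:C. Median-of-ratios scaling gave 1 under DMSO and 1 under RES, a TPM minimum of 5 gave 1 under RES, and only the groups compared gave 0 under DMSO. No filter on low genes gave 4 under 2-CM and 1 for 2-CM against DMSO with poly I:C. With a library left out the counts ran from 0 to 4 under DMSO, 0 to 27 under 2-CM, 0 to 1 under RES and 9 to 23 on average. The GC correction, alone and with the block, reversed TRIM4 (-0.027), TRIM36 (-0.561), TRIM44 (-0.598) and TRIM61 (-0.574) under 2-CM and TRIM61 on average (-0.078). Of the alternatives of 43 called member values, 702 kept direction and side of the threshold, 261 lost the call and 10 reversed. Why the counts moved was not tested, except that fewer samples were fitted where libraries were left out. The share of all genes called was not taken for those fits, the fit without a filter or the replicate block. Their counts are therefore not results about the members.

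No label says that replicate numbers mark a shared day, so they were not taken as pairing. Same-numbered deviations correlated in all 10 pairs among 5 groups (0.153 to 0.761) and ran opposite in all 5 pairs with RES poly I:C (-0.796 to -0.307). Whether the numbers mark a shared batch was not tested. The replicate block alone called 2 under DMSO, 24 under 2-CM, 0 under RES and 18 on average, without TRIM8 under DMSO (adjusted p 0.0610) and TRIM44 and TRIM16 under 2-CM (0.0565 and 0.0553). Depth limits low members such as TRIM61 and TRIM63, near 1 TPM.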
